A study of Homo sapiens with 4 samples.

Results

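The 55 genes described here were close to silent in K562 cells that carried an empty vector and were read at a low but clear level in cells that carried the fusion gene RUNX1::ERG. They were chosen by their CPM, the count of a gene scaled to a library sum of 1000000 counts. A gene was taken when it had 0.2 CPM or less in both empty vector libraries and 0.6 CPM or more in both RUNX1::ERG libraries. ERG itself, which is a part of the plasmid, and the platelet chemokine genes PF4 and PPBP were left out by name. The rule found 55 of the 25702 genes in the files. Because the genes were chosen by the difference between the groups, that difference is given for them as a description and was not tested.

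RUNX1 and ERG are transcription factors of blood stem cells and megakaryocytes, the cells that release platelets. RUNX1 binds DNA through its Runt domain and ERG through its Ets domain, which reads sites built around GGAA, and ERG is also active in the endothelial cells that line vessels. K562, an established line from a human chronic myeloid leukemia, makes embryonic and fetal globins and can be driven towards erythroid or megakaryocytic features, so a gene that is off in it can belong to a neighbouring blood lineage or to an unrelated tissue.

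Whole transcriptome sequencing of mRNA enriched for poly(A) was performed on K562 cells transfected with LeGO-iG2 that carried RUNX1::ERG, and on K562 cells given LeGO-iG2 alone, with 2 biological replicates in each group. The labels give no other treatment, and LeGO-iG2 also makes green fluorescent protein in both groups. The transfection was transient, so each library is a mixed population, and in these bulk libraries a gene that is on in few cells and a gene that is weakly on in many cells cannot be told apart. Whether transfected cells were sorted before the RNA was taken is not given in the sources used here.

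The libraries held between 59695387 and 82352144 counts. Where a gene has 0 counts, up to 3 counts are allowed, which is 0.0364 to 0.0503 CPM per library and 0.0226 CPM over both empty vector libraries. Between 66.7% and 68.9% of the counts from 1 to 10 were even numbers, as counting both mates of a pair would give, so the intervals and lower bounds given here cover counting error only and are too narrow. ERG, the check of the labels, was at 0.067 and 0.0546 CPM with the empty vector and at 977 and 380 CPM in RUNX1::ERG replicates 1 and 2. The RUNX1::ERG replicates thus differed 2.57-fold in ERG, counted without telling the plasmid from the endogenous gene. RUNX1, the other part of the fusion and counted in the same way, differed 2.00-fold. It was at 79.3 and 47.2 CPM in empty vector 1 and 2 and at 804 and 402 CPM in RUNX1::ERG 1 and 2. Of the 10 genes listed as marks of K562, none was silent with the empty vector, and HBE1, an embryonic globin, was at 6676, 6159, 8611 and 7349 CPM in empty vector 1 and 2 and RUNX1::ERG 1 and 2.

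The switch was nearly one-sided. Of 10828 genes with 0.2 CPM or less in both empty vector libraries, 0.508% met the rule. With the groups exchanged, 10564 genes were silent in both RUNX1::ERG libraries, and 1 of them, the homeobox gene DLX4, had 0.6 CPM or more in both empty vector libraries. DLX4 was at 1.29 and 0.765 CPM with the empty vector and at 0.194 and 0.154 CPM with RUNX1::ERG. Single libraries crossed both limits in larger numbers. From empty vector replicate 2 to replicate 1, 51 genes went from 0.2 CPM or less to 0.6 CPM or more, and 5 did so the other way. From 1 RUNX1::ERG replicate to the other it was 30 and 7 genes. Between an empty vector and a RUNX1::ERG library it was 94 to 186 genes upwards and 9 to 59 downwards. The number that met the rule depended on the libraries, with 99 genes when empty vector replicate 1 was left out and 93 when RUNX1::ERG replicate 2 was left out. For the fall, leaving out empty vector replicate 2 gave 20 genes in place of 1, and leaving out any of the other 3 libraries gave 3 or 4.

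**Figure D1:**
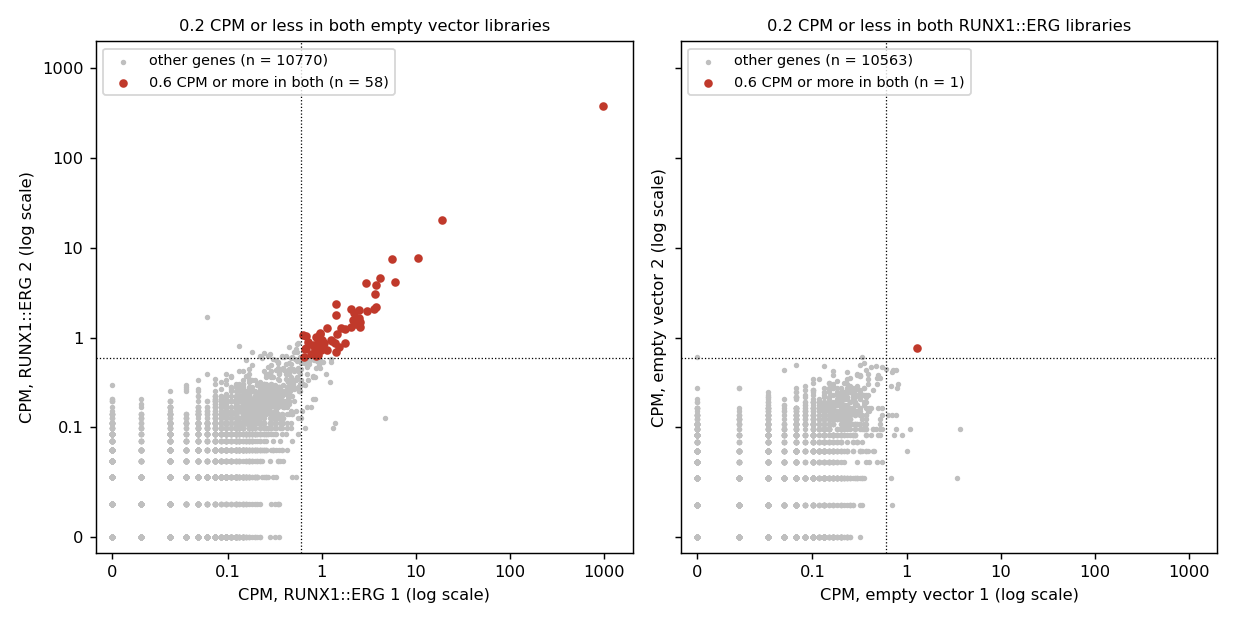
Each point is a gene, placed by its CPM in the replicates of the other group on log axes, for genes with 0.2 CPM or less in both empty vector libraries (left) and in both RUNX1::ERG libraries (right); dotted lines mark 0.6 CPM. The 58 red genes on the left include ERG, PF4 and PPBP, and 1 gene is red on the right.

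In all, the 55 genes summed to 243 and 253 counts in the empty vector libraries and to 8055 and 6027 counts in the RUNX1::ERG libraries, or 4.07, 3.46, 97.8 and 84.2 CPM. The largest count of any of them in an empty vector library was 14 and the smallest in a RUNX1::ERG library was 44. With RUNX1::ERG, 25 reached 1 CPM in both libraries, 10 reached 2 CPM and 3 reached 4 CPM. Levels are best read per length of exon. The median was 0.346 CPM per kb over the 52 genes with a known exon length, against 5.94 over the 12251 genes with 0.6 CPM or more in both RUNX1::ERG libraries. So these genes were on at a low level. FCER1G was the highest per length at 5.19 CPM per kb, followed by FOLR2 at 1.43 and INMT at 1.29.

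**Figure D2:**
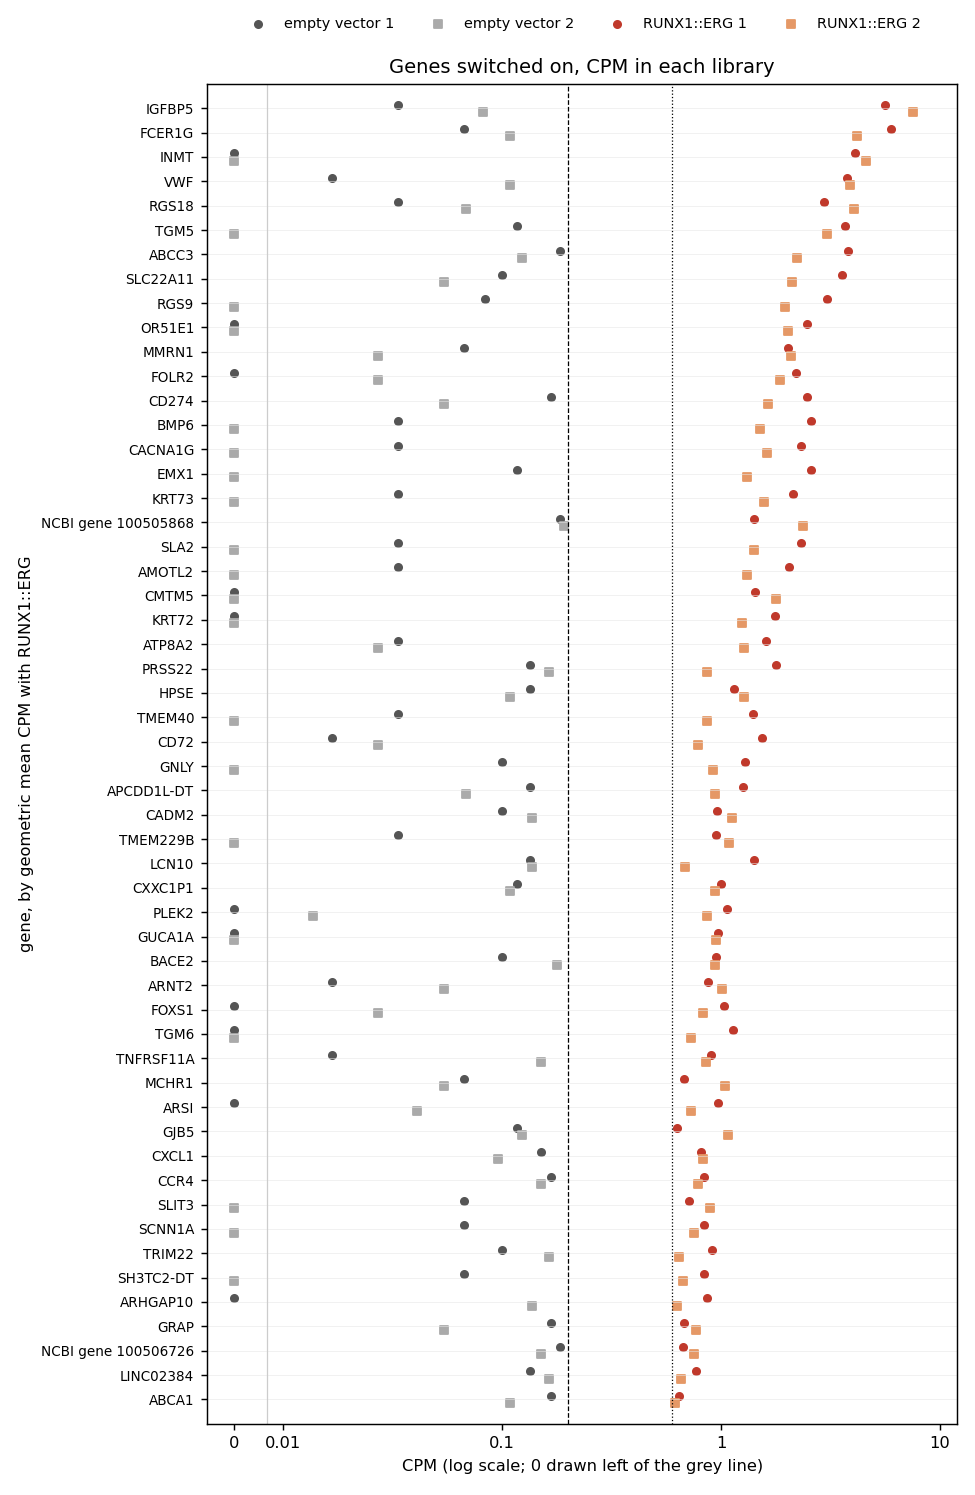
CPM (log axis) of 54 of the 55 genes in the 4 libraries, 1 row a gene, with 0 drawn left of the grey line and the limits of 0.2 and 0.6 CPM as dashed and dotted lines. Empty vector libraries (grey) and RUNX1::ERG libraries (red and orange) are apart in every row because the genes were chosen so, and most genes lie near 1 CPM.

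By type, 49 were protein-coding, 3 were long noncoding RNAs, 1 was a pseudogene and 2 (NCBI genes 100505868 and 100506726) were not in the RefSeq table. By role, 9 encode cell surface receptors, 8 secreted or granule proteins, 8 enzymes, 8 signalling regulators or adaptors, 8 channels or transporters, 3 transcription factors, 3 other membrane proteins and 2 keratins. In the values below, the order is empty vector replicates 1 and 2, then RUNX1::ERG replicates 1 and 2. Folds compare the summed counts of the groups, with exact 95% intervals.

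Among secreted proteins, IGFBP5, a binding protein of insulin-like growth factors, had the highest geometric mean CPM of all 55. It was at 0.0335, 0.082, 5.61 and 7.56 CPM, a fold of 108 (55 to 251). VWF, the von Willebrand factor of platelet granules and endothelium, was at 0.0168, 0.109, 3.78 and 3.87 CPM, a fold of 56.4 (29.5 to 124). MMRN1, multimerin 1 of platelet granules and endothelium, was at 0.067, 0.0273, 2.03 and 2.10 CPM, a fold of 45.6 (20.7 to 125). With RUNX1::ERG, IGFBP5 was higher in replicate 2, and VWF and MMRN1 had nearly the same level in both replicates. BMP6, a bone morphogenetic protein, rested on 2 counts with the empty vector and was at 0.0335, 0, 2.57 and 1.51 CPM, a fold of 138 with a wide interval (37.9 to 1146). The other 4 were lower. GNLY, the cytotoxic granule protein granulysin, was at 0.101, 0, 1.29 and 0.922 CPM. LCN10, a lipocalin, was at 0.134, 0.137, 1.42 and 0.685 CPM. CXCL1, a chemokine that draws neutrophils, was at 0.151, 0.0956, 0.814 and 0.824 CPM. SLIT3, a ligand of ROBO receptors, was at 0.067, 0, 0.716 and 0.894 CPM.

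FCER1G led the receptors. It encodes the gamma chain shared by Fc receptors, which also carries the signal of the platelet collagen receptor, and it was at 0.067, 0.109, 6.0 and 4.18 CPM, a fold of 57.1 (32.5 to 111). The 250 bases before its RefSeq start (chr1:161184835-161185084 on GRCh37, + strand) are shown because they hold both kinds of motif searched here. Capitals mark the Ets motif CCGGAAG, the Ets motif CAGGAAG and the Runt motif TGTGGT, on either strand.
FCER1G: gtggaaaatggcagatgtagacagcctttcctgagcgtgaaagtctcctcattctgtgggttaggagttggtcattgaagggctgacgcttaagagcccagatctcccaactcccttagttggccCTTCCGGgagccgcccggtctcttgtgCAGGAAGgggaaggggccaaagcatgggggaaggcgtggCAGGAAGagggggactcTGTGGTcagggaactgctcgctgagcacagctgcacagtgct
OR51E1, an olfactory receptor that is also found outside the nose, had 0 counts in both empty vector libraries and was at 2.48 and 2.03 CPM with RUNX1::ERG, at least 100-fold higher. Of 369 olfactory receptor genes in the files, 351 were silent with the empty vector and OR51E1 alone met the rule. Over all silent genes 0.508% met it, so nothing is read from this count. FOLR2, a folate receptor known from macrophages, was at 0, 0.0273, 2.21 and 1.86 CPM. CD274, which encodes the immune checkpoint ligand PD-L1, was at 0.168, 0.0546, 2.47 and 1.63 CPM, a fold of 19.7 (11.6 to 36.5). The remaining 5 receptors reached 1 CPM in at most 1 library. CD72, a coreceptor of B cells, was at 0.0168, 0.0273, 1.54 and 0.782 CPM. CADM2, an adhesion molecule of nerve cells, was at 0.101, 0.137, 0.959 and 1.12 CPM, and MCHR1, a receptor of melanin-concentrating hormone, at 0.067, 0.0546, 0.68 and 1.05 CPM. TNFRSF11A, the RANK receptor of osteoclast precursors, was at 0.0168, 0.15, 0.899 and 0.852 CPM. CCR4, a chemokine receptor of T cells, was at 0.168, 0.15, 0.838 and 0.782 CPM, a fold of 5.14 (3.22 to 8.59).

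Of the signalling genes, both leaders restrain G-protein signals. RGS18, which is abundant in platelets, was at 0.0335, 0.0683, 2.96 and 4.05 CPM, a fold of 65.9 (31.7 to 165). The 250 bases before its RefSeq start (chr1:192127342-192127591 on GRCh37, + strand) are shown because they hold the Runt motif TGTGGT 2 times, in capitals, and neither of the Ets motifs.
RGS18: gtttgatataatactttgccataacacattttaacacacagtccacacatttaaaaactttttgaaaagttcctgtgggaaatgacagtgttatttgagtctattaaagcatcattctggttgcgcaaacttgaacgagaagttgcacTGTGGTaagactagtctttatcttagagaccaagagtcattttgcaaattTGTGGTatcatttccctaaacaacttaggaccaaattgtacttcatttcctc
RGS9, known from the retina and striatum, was at 0.0838, 0, 3.04 and 1.96 CPM, a fold of 67.3 (28.6 to 209). Of the other genes named RGS in the files, 9 were tested, and RGS10 was called higher while none was called lower. Over all genes tested 3.64% were called higher and 1.15% lower, so this count says little. SLA2 and GRAP are adaptors of lymphocyte receptors. SLA2 was at 0.0335, 0, 2.32 and 1.41 CPM, and GRAP, which has a near-identical copy named GRAPL and is uncertain for that reason, at 0.168, 0.0546, 0.68 and 0.768 CPM. AMOTL2, of the angiomotin family at cell junctions, was at 0.0335, 0, 2.05 and 1.31 CPM. PLEK2, a pleckstrin of the actin skeleton in erythroid cells, was at 0, 0.0137, 1.07 and 0.866 CPM. GUCA1A, an activator of guanylate cyclase in photoreceptors, had 0 counts in both empty vector libraries and was at 0.971 and 0.95 CPM, at least 42.6-fold higher. ARHGAP10, a GTPase-activating protein, was at 0, 0.137, 0.862 and 0.629 CPM.

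INMT, an enzyme that methylates indole amines, had the highest level of the 6 genes without a count in the empty vector libraries. It had 0 counts in both empty vector libraries and 338 and 330 counts in the RUNX1::ERG libraries, or 4.10 and 4.61 CPM, at least 192-fold higher. The 250 bases before its RefSeq start (chr7:30791501-30791750 on GRCh37, + strand) are shown beside the pair above because neither those Ets motifs nor the Runt motif are in them. The gene body on GRCh37 begins further upstream, at chr7:30737601, and which start these cells use was not tested.
INMT: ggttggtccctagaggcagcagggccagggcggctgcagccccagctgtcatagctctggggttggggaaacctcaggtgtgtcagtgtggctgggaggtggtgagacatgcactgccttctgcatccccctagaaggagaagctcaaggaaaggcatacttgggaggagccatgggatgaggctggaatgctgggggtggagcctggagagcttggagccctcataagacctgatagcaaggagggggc
Both transglutaminases that met the rule, which crosslink proteins, came from a family of 7 in the files. Over all genes the rule took 55 of 25702. TGM5 was at 0.117, 0, 3.67 and 3.03 CPM, a fold of 64.0 (30.9 to 160), and TGM6 had 0 counts with the empty vector and was at 1.13 and 0.726 CPM, at least 41.7-fold higher. A pair of proteases and an enzyme that cleaves heparan sulfate followed. PRSS22 was at 0.134, 0.164, 1.77 and 0.866 CPM, and BACE2 at 0.101, 0.178, 0.947 and 0.936 CPM. HPSE, heparanase, which platelets store, was at 0.134, 0.109, 1.14 and 1.27 CPM, a fold of 9.98 (5.99 to 17.8). ARSI, a sulfatase, was at 0, 0.041, 0.971 and 0.726 CPM, and TRIM22, an interferon-induced ubiquitin ligase, at 0.101, 0.164, 0.911 and 0.643 CPM.

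Transport genes made up a group of 8. ABCC3, an efflux pump of organic anions, was at 0.184, 0.123, 3.79 and 2.22 CPM, a fold of 20.3 (13.01 to 33.6). SLC22A11, an organic anion carrier of kidney and placenta, was at 0.101, 0.0546, 3.56 and 2.11 CPM, a fold of 38.3 (20.7 to 80.5). CACNA1G, a T-type calcium channel, was at 0.0335, 0, 2.31 and 1.62 CPM, and SCNN1A, a subunit of the epithelial sodium channel, at 0.067, 0, 0.838 and 0.754 CPM. ATP8A2, a lipid flippase, was at 0.0335, 0.0273, 1.60 and 1.27 CPM. GJB5, a connexin of gap junctions, was at 0.117, 0.123, 0.631 and 1.08 CPM, and ABCA1, which exports cholesterol, lay closest to the limit at 0.168, 0.109, 0.644 and 0.615 CPM.

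Transcription factors were 3 of the 55. EMX1, a homeobox factor of the cerebral cortex, was at 0.117, 0, 2.57 and 1.31 CPM, a fold of 37.7 (18.1 to 94.7). FOXS1, a forkhead factor, was at 0, 0.0273, 1.032 and 0.824 CPM, and ARNT2, a partner of bHLH-PAS factors in neurons, at 0.0168, 0.0546, 0.874 and 1.01 CPM.

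KRT72 and KRT73, keratins of the inner root sheath of hair, lie side by side. KRT72 had 0 counts with the empty vector and was at 1.76 and 1.24 CPM, at least 67.3-fold higher, and KRT73 was at 0.0335, 0, 2.14 and 1.58 CPM. Of 62 keratin genes in the files, 51 were silent with the empty vector and these 2 met the rule, beside 0.508% of all silent genes. Of the other genes of the type II group from KRT71 to KRT86, 1 could be tested. It was KRT79, at 0.603, 0.929, 3.45 and 3.13 CPM, which edgeR called higher at a log2 change of 2.05 (SE 0.37, adjusted p = 0.012). CMTM5, a MARVEL domain protein, had 0 counts with the empty vector and was at 1.43 and 1.79 CPM, at least 70.8-fold higher. TMEM40 was at 0.0335, 0, 1.40 and 0.866 CPM and TMEM229B at 0.0335, 0, 0.947 and 1.09 CPM. The 6 noncoding or unnamed genes had more counts with the empty vector. NCBI gene 100505868 was at 0.184, 0.191, 1.41 and 2.38 CPM, a fold of 9.88 (6.56 to 15.5), and NCBI gene 100506726 at 0.184, 0.15, 0.668 and 0.754 CPM, a fold of 4.28 (2.69 to 7.11), the lowest of all. APCDD1L-DT was at 0.134, 0.0683, 1.26 and 0.936 CPM, SH3TC2-DT at 0.067, 0, 0.838 and 0.671 CPM, LINC02384 at 0.134, 0.164, 0.765 and 0.657 CPM, and the pseudogene CXXC1P1 at 0.117, 0.109, 0.996 and 0.936 CPM.

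All 55 passed the filter of edgeR on low counts, which a gene that is high in 1 group can do through that group alone. By the quasi-likelihood test with Benjamini-Hochberg adjustment over 15394 genes, 51 of them were called higher at an adjusted p under 0.05, where 3.64% of all genes tested were called higher and 1.15% lower. Nothing is read from the 51, since the rule used the same contrast. The 4 not called were ARHGAP10, ABCA1, LINC02384 and NCBI gene 100506726.

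The limits cut through a continuum. Just outside the empty vector limit, at 0.201 CPM in replicate 1, lay PDZK1IP1 (2.999 and 1.82 CPM with RUNX1::ERG), NPIPA3, GPR4 and DUSP4, and then GOLGA8VP at 0.218 CPM. Just inside it lay NCBI gene 100505868, ABCC3, NCBI gene 100506726, BACE2 and ABCA1, at 0.191 to 0.168 CPM. Just under the RUNX1::ERG limit came VIPR1 at 0.587, SERPIND1 at 0.583, TMPRSS11B and MYH6 at 0.573 and FXYD6 at 0.559 CPM, and just above it ABCA1, ARHGAP10, GJB5, TRIM22 and LINC02384, at 0.615 to 0.657 CPM. VIPR1, a receptor of vasoactive intestinal peptide, had 0 counts in both empty vector libraries.

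Replicate 1 of RUNX1::ERG had 2.57 times as much ERG as replicate 2. The rule did not use their ratio directly, but its limit of 0.6 CPM in both leaves out genes that differ strongly. Of the genes silent with the empty vector, 38 reached 0.6 CPM in RUNX1::ERG replicate 1 only and 19 in replicate 2 only. The genes set beside the 55 here met the same limit of 0.6 CPM. The 55 genes were on the whole somewhat higher in replicate 1, in 38 of 55 cases (69.1%), with a median log2 ratio of 0.29 (quartiles -0.10 and 0.52). Other genes of like level, up to 8 CPM, leaned the same way, with a median of 0.14 and 63.5% higher in replicate 1 (n = 3323), while the median over all 12899 genes at 0.6 CPM or more was 0.01. For genes called higher that were above 0.2 CPM in an empty vector library the median was 0.17 (n = 447). None of the 55 reached the log2 ratio of ERG (1.36), a ratio that the limit keeps the lowest of them from reaching. The highest were LCN10 (ratio 2.08), PRSS22 (2.05) and CD72 (1.97), and the lowest GJB5 (0.587), NCBI gene 100505868 (0.593) and MCHR1 (0.649). With 1 library at each level of ERG, a dependence on dose cannot be told apart from the other differences between these libraries.

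**Figure D3:**
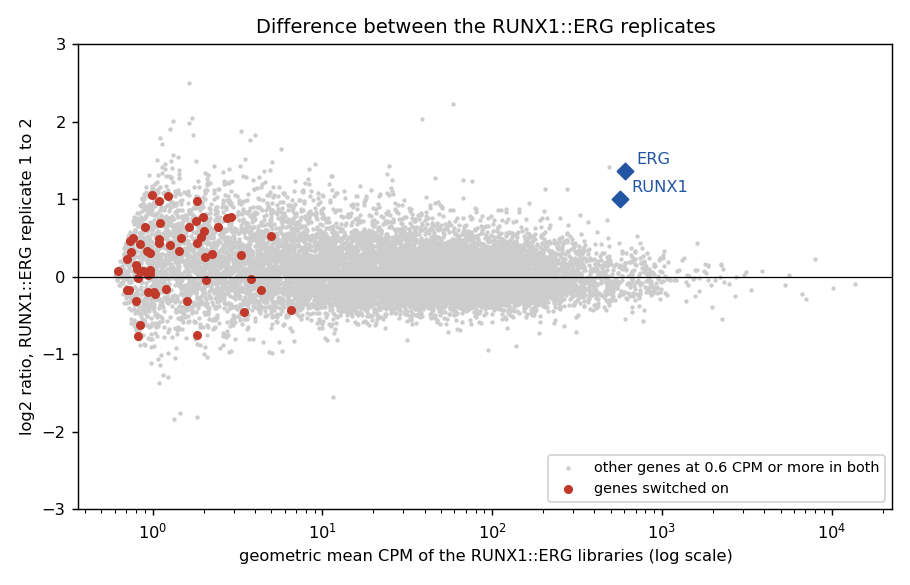
Log2 ratio of the CPM in RUNX1::ERG replicate 1 to replicate 2 against the geometric mean CPM (log axis), with the 55 genes in red, other genes at 0.6 CPM or more in both libraries in grey and ERG and RUNX1 as blue diamonds. The red points scatter around a median of 0.29 and all lie under ERG at 1.36. The limit of 0.6 CPM in both libraries bounds the ratio at the lowest levels.

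Positions on GRCh37 were found for 52 of the genes, on 19 chromosomes, with 5 on chromosome 12 as the most on any. A few lay together. KRT72 and KRT73 were 6.03 kb apart, CACNA1G and ABCC3 7.30 kb and PLEK2 and TMEM229B 34.9 kb, each pair with the same strand and no gene between. CXCL1 lay 109.5 kb from PF4, with no gene between. PF4 was at 0, 0.0273, 10.6 and 7.75 CPM. VWF and SCNN1A lay 222 kb apart, with 3 genes between. The bodies of 8 genes (GJB5, TRIM22, SCNN1A, TMEM229B, GRAP, SLA2, BMP6 and CD72) overlap a gene on the other strand that was at 1 CPM or more with the empty vector. None of those overlapping genes was called, and since the strand setting of the counting is not given, their reads cannot be told apart from those of the 8.

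Some of the genes had a neighbour that was higher as well, which the rule did not use. Of 98 genes that lay nearest on either side 60 could be tested, and edgeR's quasi-likelihood test called 11 of them higher (18.3%) and none lower. DESeq2 called 12 higher, 10 of the 11 among them, and none lower, and at an unadjusted p under 0.05 edgeR had 17 higher and 2 lower. Neighbours near 0 with the empty vector, such as KRT2, MYH6 and APCDD1L, passed the filter on low counts through the RUNX1::ERG libraries alone. Such genes could not have been called lower. The neighbours' log2 fold changes had a median of 0.26. All genes tested had 3.64% called higher and 1.15% called lower. For the neighbours of other genes silent with the empty vector, 4.1% of 6345 tested were called higher. Within 100 kb, 16 of 149 tested genes were called higher (10.7%). SH3TC2 lies 0.076 kb from SH3TC2-DT and was at 2.95, 3.73, 16.9 and 15.8 CPM, with a log2 change of 2.24 (SE 0.24, adjusted p = 0.00054), and ABLIM3, an actin binding gene on the other side, had 2.18 (SE 0.36, adjusted p = 0.0071). FOLR1, the sister gene of FOLR2 at 20.3 kb, was at 0.469, 0.41, 4.46 and 4.11 CPM, with a log2 change of 3.24 (SE 0.35, adjusted p = 0.00054). These 3 were also called without RUNX1::ERG replicate 1, when the number called fell to 4 in all. Others called higher were KRT2 (log2 fold change 4.28, adjusted p = 0.043 by edgeR and 0.062 by DESeq2, and not called either without RUNX1::ERG replicate 1 or 2 or empty vector replicate 1), MYH6 beside CMTM5 (3.51), LCN6 beside LCN10 (2.96), ZG16B beside PRSS22 (2.57), CAMK2A beside ARSI (1.96), GUCA1B beside GUCA1A (1.79) and MDM1 beside LINC02384 (0.87). FOLR1, KRT2, LCN6 and GUCA1B belong to the families of their neighbours, and reads shared between related genes or read through from 1 gene into the next were not tested. APCDD1L, which overlaps APCDD1L-DT, had a log2 fold change of 3.57 and was not called (adjusted p = 0.059).

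**Figure D4:**
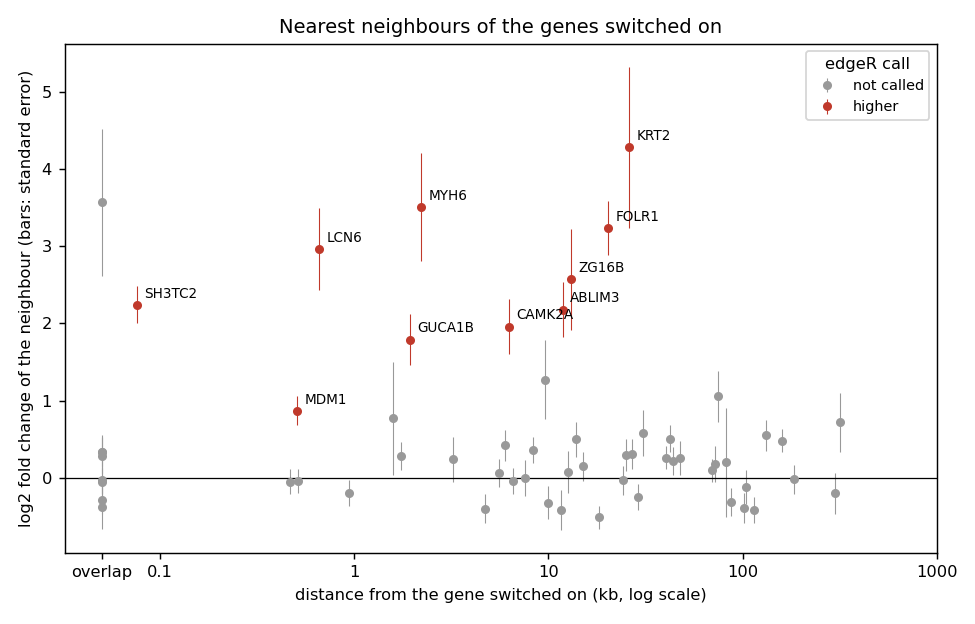
Log2 fold change from edgeR with its standard error for 59 of the 60 tested nearest neighbours of the 55 genes, against the distance in kb on a log axis, with overlapping genes at the left. The 10 neighbours called higher that are drawn (red) are named, and none was called lower.

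Lists of lineage genes give the context. They were chosen with earlier results of these data known, so their counts beside the share over all genes are not independent of these data. Of the 37 megakaryocyte and platelet genes, 19 were silent in both empty vector libraries. VWF, MMRN1 and RGS18 met the rule, beside 0.508% of all silent genes, and PF4 and PPBP were left out of it. Of the other 32 genes 18 could be tested, and edgeR called 11 of these higher and none lower. None was lower by edgeR at an unadjusted p under 0.05, and DESeq2 called 12 higher and none lower. Over all genes tested edgeR called 3.64% higher and 1.15% lower, so a count of none lower among 18 says little. The median log2 fold change was 1.08, against -0.0 over all genes tested. ITGB3, the integrin chain that platelets use to bind fibrinogen, was at 3.48, 4.22, 101 and 97.1 CPM, with a log2 change of 4.64 (SE 0.2, adjusted p = 1.7e-06). Its partner ITGA2B was at 12.1, 8.59, 235 and 161 CPM, with a log2 change of 4.22 (SE 0.24, adjusted p = 5.5e-06), and THBS1, thrombospondin of platelet granules, had one of 3.65 (SE 0.29, adjusted p = 7.3e-05). Some listed genes at a high level were not called by edgeR. NFE2 was at 308, 311, 306 and 288 CPM, with a log2 change of -0.1 (SE 0.14), and P2RY1 had one of 0.22 (SE 0.16). Other platelet genes stayed near the floor. SELP was at 0, 0, 0.219 and 0.112 CPM and GP9 at 0, 0, 0.0243 and 0 CPM.

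None of the 35 endothelial genes met the rule, but VWF and MMRN1, also known from endothelium, were placed on the megakaryocyte and platelet list only. Of the 35, 13 were silent in both empty vector libraries. Over all silent genes 0.508% met the rule, so a count of none says little. Of 27 tested, edgeR called 10 higher and none lower, DESeq2 10 higher and 1 lower, and at an unadjusted p under 0.05 edgeR had 14 higher and 1 lower. Here too the shares over all genes tested were 3.64% higher and 1.15% lower by edgeR, so none lower among 27 says little. The median log2 fold change was 0.70. SHANK3 was at 0.369, 0.246, 14.1 and 8.997 CPM, with a log2 change of 5.2 (SE 0.37, adjusted p = 4.5e-05), and PECAM1, an adhesion molecule of platelets and endothelium, had 2.96 (SE 0.22, adjusted p = 5.8e-05). The changes of 3 other called genes rested on few counts with the empty vector. These genes passed the filter on low counts through the RUNX1::ERG libraries alone, so they could not have been called lower. ECSCR, called higher and just short of the rule, was at 0, 0, 0.546 and 0.545 CPM (adjusted p = 0.0059), ARHGEF15 at 0, 0, 0.279 and 0.405 CPM (adjusted p = 0.016) and ROBO4 at 0.0335, 0, 0.777 and 0.168 CPM (adjusted p = 0.045). FLT4, a receptor of lymphatic vessels, had a log2 change of 3.08 (SE 0.63, adjusted p = 0.021). The defining genes CDH5, KDR and TEK were at 0.328 CPM or less in all 4 libraries.

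Few markers of other cell types could be tested. The 7 lists named first are those in which edgeR called no gene, so their count of none follows from that grouping. Over all genes tested edgeR called 3.64% higher and 1.15% lower, so few calls were to be expected among so few genes. In the T cell, B cell, granulocyte, mast cell and basophil, epithelial, neuron and hepatocyte lists none of 19 tested genes was called in either direction by edgeR, while 3 were higher and 2 lower at an unadjusted p under 0.05 and DESeq2 called 1 higher and 1 lower. The monocyte list had CD14 and LYZ called higher of 3 tested (its sum was 8.07, 10.4, 22.9 and 20.9 CPM), the fibroblast list COL1A1 of 3 and the stem and progenitor list MEIS1 and PROCR of 7. Of the 10 K562 genes, TAL1, which is also on the endothelial list, was called higher at a log2 change of 0.68 (SE 0.15, adjusted p = 0.025). Of the 86 listed genes tested edgeR called none lower, DESeq2 called 3 lower and 5 were lower at an unadjusted p under 0.05. Without RUNX1::ERG replicate 1, 14 of the 26 listed genes called higher were still called.

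**Figure D5:**
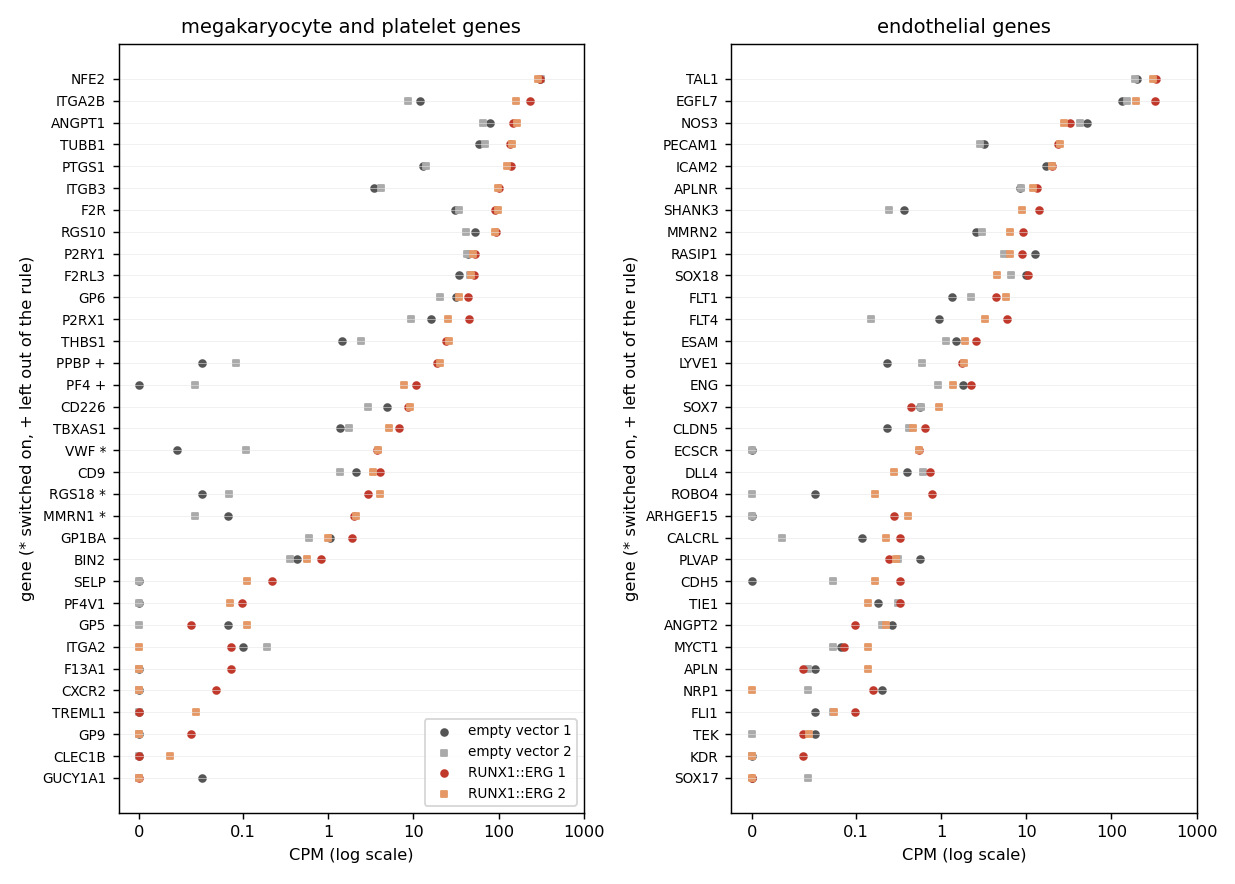
CPM (log axis, 0 at the left edge) in the 4 libraries of megakaryocyte and platelet genes (left) and endothelial genes (right) with at least 1 count, with a star for genes that met the rule and a plus for PF4 and PPBP. ITGA2B, ITGB3 and PTGS1 lie well apart between the groups at a high level, and the starred genes near 3 CPM.

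Promoter windows, from 250 bases before to 50 after the RefSeq start on GRCh38.p14, were found for 32 of the 55 genes. Their median content of G and C was 59.3%, between the 55.7% of 4586 protein-coding genes that were silent and not switched on and the 63.0% of all 15145 protein-coding genes. CpG pairs numbered 7 at the median, near the 8 of the silent genes and below the 22 of all. The 32 include the noncoding genes SH3TC2-DT and LINC02384, while the sets they are compared with hold protein-coding genes only. Letters were searched on both strands as exact matches. Which start these cells use was not tested, so a motif present or absent can concern a start that is not used. The gene bodies of INMT and of TMEM40, on the - strand up to chr3:12810956, begin upstream of their windows. CAGGAAG, an Ets motif, was in 7 windows (21.9%), against 13.1% of the silent, 19.5% of the other protein-coding genes called higher and 12.6% of all protein-coding genes. The Ets motif CCGGAAG, common at housekeeping promoters, was in 6.25% of the windows and in 3.9%, 3.77% and 14.5% of these sets in the same order. The Runt motif TGTGGT was in 18.8%, against 14.4%, 8.18% and 10.8%. The letters AGATAA, which GATA factors bind, were in 12.5%, against 12.6%, 7.23% and 7.5%. TATAAA was in 9.38%, against 17.6%, 10.4% and 9.48%. The longer TGTGGTT was in 3.12%, against 4.8%, 3.46% and 3.57%, and neither ACCGGAAGT nor the composite GGATGTGG was in any of the 32.

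The tandem GGAAGGAA was in 6 of 32 windows (18.8%), against 3.86% of the silent, 5.35% of the other protein-coding genes called higher and 3.56% of all protein-coding genes. A match is a description and not a bound site, and the 6 are few. They are shown as 30 bases on GRCh37 with the tandem, or its reverse complement, in capitals, each read along the strand of its gene.
TMEM40, chr3:12800842-12800871, - strand: tagcaccagcaGGAAGGAAtgccatcccag
CXCL1, chr4:74734987-74735016, + strand: gggccgtcgccTTCCTTCCggactcgggat
TMEM229B, chr14:68000680-68000709, - strand: aggagaggagtTTCCTTCCagatgaggctc
SLIT3, chr5:168728313-168728342, - strand: gccgagcccctTTCCTTCCctggttccttc
ARHGAP10, chr4:148653018-148653047, + strand: caggacgcctcGGAAGGAAgaggaggggca
OR51E1, chr11:4665231-4665260, + strand: ggggtcacacaTTCCTTCCatacggttgag
The match began 102 bases before the start in TMEM40, 112 in CXCL1, 131 in TMEM229B, 188 in SLIT3 and 210 in ARHGAP10, and in OR51E1 it was past the start, at position 31 of the transcript. The tandem overlaps other motifs of the search in 2 of them, CAGGAAG in TMEM40 and CCGGAAG in CXCL1. Of these 6 genes, OR51E1 alone was above 2 CPM with RUNX1::ERG. Many of the 32 windows had none of the Ets, Runt and GATA motifs, among them those of IGFBP5, INMT, RGS9, MMRN1, CD274 and BMP6. VWF and ABCC3 had no window.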

How the data were processed

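Libraries of K562 cells with RUNX1::ERG or the empty vector, 2 biological replicates each, were compared. Raw read counts, listed by NCBI gene and not normalized, are what the authors deposited. The submitters' processing notes name HISAT2 2.2.1, featureCounts 2.0.1 and hg19, and the annotation, strand and pair settings are not given in the sources used here. Symbols came from a RefSeq table of GRCh38.p14 (92.2% of 25702 genes matched) and positions and exon lengths from GENCODE v44 on GRCh37 (88.2%). Promoter sequences are those of RefSeq on GRCh38.p14, and printed windows were placed on GRCh37 by exact match.

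CPM were counts over the sum of each library. Genes tested were those kept by the filter of edgeR 4.0.16 on low counts, and calls used TMM scaling, its quasi-likelihood test and a Benjamini-Hochberg adjusted p under 0.05 (R 4.3.3). P-values measure the spread between these samples. Standard errors were the log2 fold change divided by the square root of F. The procedure was checked on simulated data. DESeq2 1.42.0, another scaling, no filter, a replicate block, other limits and leaving out each library were the alternatives.

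The genes, lists and motifs were chosen with earlier results of these data known. Genes that met the rule were named, except that a few genes are not reported here. Other genes named were those nearest the limits, called neighbours and, in the lists, called genes with the largest change. APCDD1L, HBE1, KRT79, NFE2, P2RY1, RGS10 and the listed genes near the floor were chosen after their values were seen.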

Additional observations from a re-analysis of the deposited data

How the results depend on the processing

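The rule found 59 genes with TMM scaling or DESeq2 size factors, the same 55 plus PDZK1IP1, NPIPA3, GPR4 and DUSP4. It found 15 with limits of 0.1 and 1 CPM, 87 with limits of 0.3 and 0.6 CPM, and 69 to 99 when a library was left out. In the exchanged direction it found 0 genes at 0.1 and 1 CPM and 3 to 20 without a library. Genes called higher numbered 962 without the filter on low counts and 228 (without RUNX1::ERG replicate 1) to 922 (without empty vector replicate 1) when a library was left out. Genes called lower numbered 403 by DESeq2 and 538 without the filter, and 58 (without RUNX1::ERG replicate 1) to 602 (without empty vector replicate 2) when a library was left out. Called neighbours ranged from 4 to 15 and listed genes called higher from 14 to 31 when a library was left out. The median ratio between the RUNX1::ERG replicates stayed between 0.26 and 0.40 under its alternatives. The cause of these shifts was not tested.

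Replicate numbers are shared by the groups, and nothing in the labels says that a number marks a batch or day. Deviations from the group means correlated at r = 0.27 over genes, from a single pair of numbers, so the libraries were not treated as pairs. Adding the replicate block gave 1082 genes called higher and 651 lower, with 15 neighbours and 33 listed genes called higher. With 2 libraries a group and counts near 0 with the empty vector, the size of a fold is poorly known.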
